A study of Mus musculus with 12 samples.

Results

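The interleukin-11 and interleukin-6 family was followed in primary mouse skin fibroblasts through 9 genes, taken by symbol from the 21556 genes of the count table. They were 4 ligands (Il11, Il6, Lif and Clcf1), the shared signal-transducing receptor chain Il6st, and 4 ligand-specific receptor chains (Il11ra1, Lifr, Osmr and Il6ra). They were picked with their levels under TGF-β2 already known, so that the responses described below are no independent evidence that the family responds.

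The fibroblasts were grown from abdominal skin of WT mice (C57BL/6) and of Nox4 KO mice (B6.129-Nox4tm1Kkr/J), which lack a functional NOX4, an NADPH oxidase that releases hydrogen peroxide. RNA was sequenced from 12 libraries, 3 in each of 4 groups. These were WT control, WT with TGF-β2, Nox4 KO control and Nox4 KO with TGF-β2, where stimulation was with 10 ng/ml TGF-β2 for 24 h. Cells of all 4 groups had been starved of serum beforehand, and all were passaged cultures, so that genotype and culture of origin cannot be told apart. Age and sex of the donor mice of these cultures and the number of animals behind each library are not given in the sources used here, and p-values therefore measure the spread between these libraries, which may be technical.

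Cytokines of this family signal through a receptor complex that contains gp130, the product of Il6st. Interleukin-11 and interleukin-6 first bind their own receptor chains, encoded by Il11ra1 and Il6ra, and then bring gp130 together. Leukemia inhibitory factor, encoded by Lif, joins gp130 to the LIF receptor chain, and oncostatin M joins gp130 to the chain encoded by Osmr. The engaged receptors activate Janus kinases and the transcription factor STAT3, and STAT3 in turn switches on Socs3, which shuts the receptor down. In connective tissue interleukin-11 is known as a cytokine that fibroblasts release when TGF-β activates them.

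Depth was even, with totals from 35118344 to 43796260 counts per library. Fibroblast markers, led by Col1a1 and Col1a2, summed to between 4092 and 6956 RPKM, a count scaled to library depth and to exon length, in each library, with all 8 of them at a mean of 1 RPKM or more in some group. Myeloid markers summed to between 13.9 and 120 RPKM, with 7 of 8 at that limit, were led by Lyz2, and were lowest in the third replicate of Nox4 KO with TGF-β2. The summed levels over all libraries were 0.478 to 0.901 RPKM for keratinocyte, 1.54 to 4.93 for endothelial (led by Kdr), 0 to 0.0835 for T cell, 0 to 0.0360 for mast cell, 0 to 0.282 for adipocyte and 0.191 to 0.709 for Schwann cell markers. Skeletal muscle markers summed to between 41.0 and 613 RPKM, nearly all of it Acta1, and were higher with TGF-β2. Nox4 itself was still counted in the Nox4 KO libraries, at 0.655, 0.636 and 1.40 RPKM in control and 4.54, 4.39 and 6.85 RPKM with TGF-β2, against 1.48, 1.31 and 2.42 RPKM and 10.9, 8.56 and 16.3 RPKM in WT. A gene total cannot show whether the disrupted part of the gene is among the counted reads, so that this level checks the labels only in part. The third replicate of both Nox4 KO groups was the lowest of its group for Il11 and Lif. Main results for these genes are also given without it.

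Promoter windows are shown for Il11 and Lif, the ligands that TGF-β2 raised, for Il6, a ligand whose level did not pass the test, and for Il6st, the receptor chain common to all of them. Each window runs from 250 to 21 bases before a RefSeq transcription start (GRCm38.p6), is written 5′ to 3′ in the direction of transcription, and has matches to the AP-1 motif TGANTCA in capitals. The AP-1 motif reads nearly alike on both strands and is the binding sequence of Fos and Jun proteins. For Il11 the table holds 2 starts, and the window of the downstream start is shown, which lies within the annotated gene but touches no annotated exon (chr7:4778162-4778391, minus strand). The windows of Lif (chr11:4257318-4257547), Il6 (chr5:30012864-30013093) and Il6st (chr13:112463820-112464049) lie on the plus strand.
Il11: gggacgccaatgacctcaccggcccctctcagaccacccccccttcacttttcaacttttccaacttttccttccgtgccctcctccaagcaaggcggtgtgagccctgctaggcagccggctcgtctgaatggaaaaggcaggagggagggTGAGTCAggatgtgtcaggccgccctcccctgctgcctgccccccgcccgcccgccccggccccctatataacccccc
Lif: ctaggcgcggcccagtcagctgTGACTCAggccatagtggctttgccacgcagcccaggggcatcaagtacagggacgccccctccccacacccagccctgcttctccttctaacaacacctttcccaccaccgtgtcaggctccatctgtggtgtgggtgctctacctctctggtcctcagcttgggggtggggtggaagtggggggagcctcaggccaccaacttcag
Il6: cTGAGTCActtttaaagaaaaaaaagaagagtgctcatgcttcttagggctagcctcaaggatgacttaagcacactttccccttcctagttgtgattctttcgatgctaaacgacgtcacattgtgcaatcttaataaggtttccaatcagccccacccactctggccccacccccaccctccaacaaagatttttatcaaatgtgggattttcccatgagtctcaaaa
Il6st: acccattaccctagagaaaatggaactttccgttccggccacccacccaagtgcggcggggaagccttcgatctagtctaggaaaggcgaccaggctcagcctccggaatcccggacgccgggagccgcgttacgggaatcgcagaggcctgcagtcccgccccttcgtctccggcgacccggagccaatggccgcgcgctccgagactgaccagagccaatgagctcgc

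The AP-1 motif occurred once in each of the 3 ligand windows. Its first base was 98 bases before the start in Il11, 228 bases in Lif and 249 bases in Il6. Of 32851 RefSeq promoter windows of the same length, 6.34% held it. It was in none of the windows of Il6st, Il11ra1, Lifr, Osmr and Il6ra, nor in that of the upstream Il11 start. The Il6 window also held a match to the NF-kB motif, found in 1.22% of windows, 44 bases before the start, and the Il11 window shown held 2 matches to the SMAD motif CAGAC, found in 39.7% of windows on either strand. The upstream Il11 window held 2 such matches as well, and a window of Il11ra1 and a window of Lifr held 1 each. None of the members' windows held the STAT motif TTCNNNGAA, found in 6.48% of windows. Entries were found for 8 of the 9 genes, and Clcf1 had none. A match is a description of letters and shows no binding.

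In control cells the family was led by receptor chains and Clcf1. The mean level in WT control was 54.5 RPKM for Il6st, 52.2 for Osmr, 33.6 for Clcf1, 18.3 for Il11ra1, 9.02 for Lif, 8.11 for Il11, 6.16 for Il6, 2.53 for Lifr and 1.97 for Il6ra. The ranges of Il6st and Osmr overlapped, as did those of Lif and Il11, of Il11 and Il6, and of Lifr and Il6ra. Within each WT control library Il6st lay above Osmr, Il11 above Il6 and Lifr above Il6ra. The order of Lif and Il11 changed between libraries. After TGF-β2 the order in WT was Il11 at 108 RPKM, Lif at 55.9, Clcf1 at 37.3, Il6st at 22.0, Osmr at 18.4, Il11ra1 at 13.5, Il6 at 5.51, Lifr at 0.851 and Il6ra at 0.784. Here the ranges of Il6st and Osmr, of Osmr and Il11ra1, and of Lifr and Il6ra overlapped. Il6st lay above Osmr in each library, and the order within the other pairs changed between libraries. Il11 went from place 5896 of 10597 genes with a mean of at least 1 RPKM to place 444 of 10278.

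**Figure D1:**
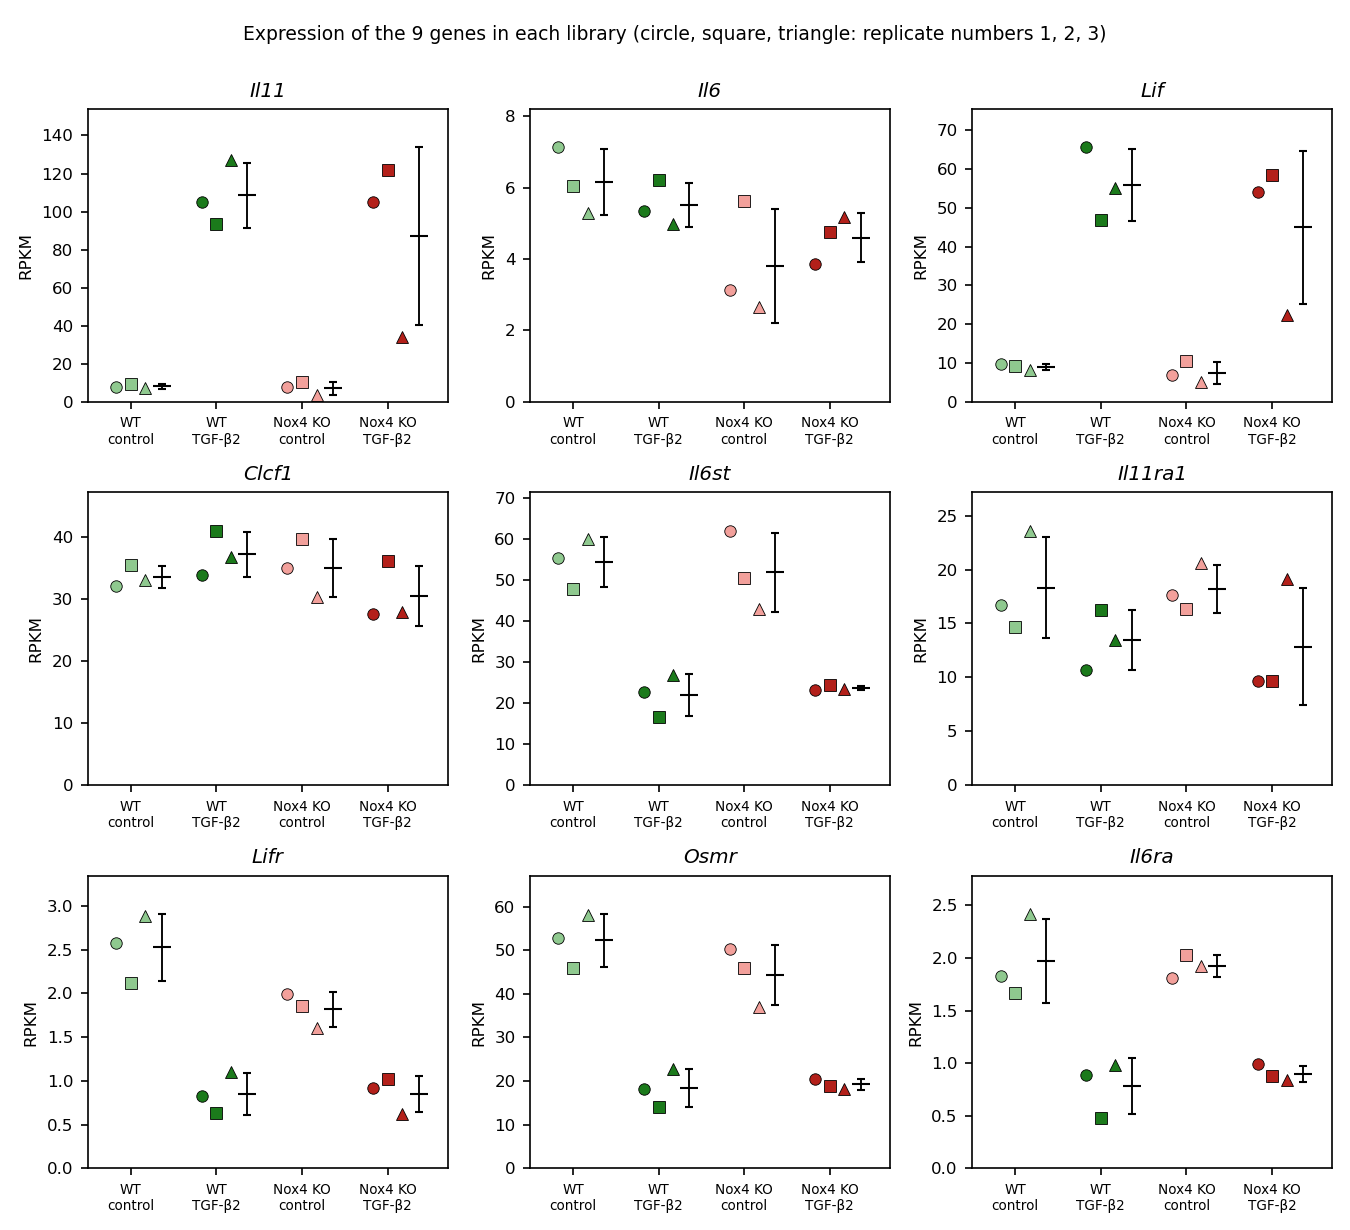
Level of each of the 9 genes in RPKM (vertical axis, from 0) in every library of the 4 groups, with symbols for the replicate number and a bar for the mean ± SD of 3 libraries. Il11 and Lif are high in both TGF-β2 groups, Il6st, Lifr, Osmr and Il6ra are low there, and the triangle of Nox4 KO lies lowest for Il11 and Lif.

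The first question was how TGF-β2 changes the family in WT fibroblasts. Il11 and Lif rose, Il6st, Lifr, Osmr and Il6ra fell, and Il6, Clcf1 and Il11ra1 did not pass the test. A gene was called when the adjusted p of edgeR's quasi-likelihood test was under 0.05 and the fold change was at least 2. Of the 10743 genes tested 7.74% were called, 2.64% higher and 5.1% lower, beside 2 members higher and 4 lower of 9, a count that their choice has shaped. The same 6 members had groups that did not overlap in RPKM, as did 45.2% of all genes tested. Since RNA was taken from whole cultures, a lower level could come from fewer cells that make a transcript or from less of it per cell, and these cannot be told apart. In WT the sum of skeletal muscle markers went from between 41.0 and 95.3 RPKM in control to between 274 and 613 RPKM. It was nearly all Acta1, while Myog and Myh3 had at most 1 and 5 counts in any library. The fibroblast sum went from between 5466 and 6186 RPKM to between 4092 and 5159 RPKM. Among fibroblast markers Pdgfra went from a mean of 39.9 RPKM to between 2.82 and 4.64 RPKM. Col3a1 went from between 838 and 1268 RPKM to between 374 and 563 RPKM. Thy1 went from between 485 and 569 RPKM to between 283 and 424 RPKM, and Pdgfrb was lower as well. Col1a1, at 2116 to 2463 RPKM in control and 1909 to 2446 RPKM with TGF-β2, overlapped between the groups, as did Col1a2, Dcn and Lum. Their part in the changes of the family was not tested.

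Il11 encodes interleukin-11 (ENSMUSG00000004371, chr7:4772373-4782859, minus strand, GRCm38). Its level was 7.83, 9.43 and 7.08 RPKM in WT control and 105, 93.2 and 127 RPKM in WT with TGF-β2. All 3 stimulated libraries lay far above the highest control library. The fitted fold change was 13.7 (95% interval 10.2 to 18.5, n = 3 per group, edgeR adjusted p = 0.000233), or 3.78 ± 0.18 (SE) on the log2 scale.

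Lif encodes leukemia inhibitory factor, which holds embryonic stem cells in their undifferentiated state (ENSMUSG00000034394, chr11:4257557-4272514, plus strand). It stood at 9.79, 9.11 and 8.16 RPKM in WT control and at 65.6, 47.0 and 55.1 RPKM with TGF-β2. The groups did not overlap, and the fold change was 6.38 (95% interval 4.83 to 8.42, edgeR adjusted p = 0.000385). Control levels of Il11 and Lif were alike, with a ratio of Il11 to Lif of 0.799, 1.03 and 0.867 in the 3 control libraries. With TGF-β2 this ratio of RPKM was 1.60, 1.98 and 2.31, higher in each stimulated library than in any control library.

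Il6 encodes interleukin-6, the family's acute-phase and inflammatory cytokine (ENSMUSG00000025746, chr5:30013114-30019981, plus strand). Its libraries read 7.13, 6.05 and 5.29 RPKM in WT control and 5.36, 6.20 and 4.98 RPKM with TGF-β2. These groups overlapped, and the log2 fold change was -0.12 ± 0.16 (SE, 95% interval -0.50 to 0.25, edgeR adjusted p = 0.603). The interval leaves out a 2-fold change in either direction.

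Clcf1 encodes cardiotrophin-like cytokine factor 1, which acts through the ciliary neurotrophic factor receptor (ENSMUSG00000040663, chr19:4214238-4223490, plus strand). It was the ligand with the highest control level, at 32.1, 35.6 and 33.1 RPKM in WT control and 33.9, 41.1 and 36.8 RPKM with TGF-β2. The log2 fold change was 0.19 ± 0.10 (SE, 95% interval -0.04 to 0.41, edgeR adjusted p = 0.199). Of its 1976 different stretches of 50 bases, the read length, 13.3% also occur in transcripts of the overlapping gene AC109138.7, so that reads of the pair cannot be fully told apart.

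Among the receptor genes, Il6st encodes gp130 (ENSMUSG00000021756, chr13:112464070-112510086, plus strand). It fell from 55.5, 48.0 and 60.0 RPKM in WT control to 22.6, 16.6 and 26.8 RPKM with TGF-β2. The groups did not overlap. The fold change was 2.40 downward (log2 -1.27 ± 0.19, SE, edgeR adjusted p = 0.00564).

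Osmr encodes the oncostatin M receptor chain, which also forms part of the interleukin-31 receptor (ENSMUSG00000022146, chr15:6813577-6874969, minus strand). It fell from 52.8, 45.9 and 58.0 RPKM to 18.3, 14.2 and 22.7 RPKM, with a log2 fold change of -1.46 ± 0.19 (SE, edgeR adjusted p = 0.00319). Osmr and Il6st fell side by side. Their ratio in RPKM was 0.951, 0.957 and 0.967 in the WT control libraries and 0.809, 0.855 and 0.846 with TGF-β2.

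Lifr encodes the LIF receptor chain, the partner of gp130 for leukemia inhibitory factor (ENSMUSG00000054263, chr15:7090614-7197489, plus strand). It was a low-level transcript, at 2.58, 2.12 and 2.88 RPKM in WT control, and it fell to 0.821, 0.628 and 1.10 RPKM. Its mean with TGF-β2 was under 1 RPKM, so that it entered the test through the control group alone, where it was higher. The log2 fold change was -1.53 ± 0.22 (SE, edgeR adjusted p = 0.00513).

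Il6ra, the interleukin-6 receptor chain (ENSMUSG00000027947, chr3:89864059-89913196, minus strand), was at 1.83, 1.67 and 2.42 RPKM in WT control and at 0.891, 0.479 and 0.982 RPKM with TGF-β2. It too entered the test through the control group alone. The groups did not overlap, and the log2 fold change was -1.28 ± 0.29 (SE, edgeR adjusted p = 0.0207). Leaving out any 1 of the 3 WT control libraries or the first stimulated library ended this call, with adjusted p between 0.0516 and 0.0805. The exons share 242 bases with the antisense gene Gm42809, and the counting is not stated to use strand, so that reads from that stretch cannot be assigned to 1 of them.

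Il11ra1, the interleukin-11 receptor chain (ENSMUSG00000073889, chr4:41699989-41769474, plus strand), was at 16.7, 14.7 and 23.6 RPKM in WT control and at 10.7, 16.3 and 13.5 RPKM with TGF-β2. A single stimulated library lay within the control range, and the log2 fold change of -0.40 ± 0.20 (SE, 95% interval -0.89 to 0.08) did not pass the test (edgeR adjusted p = 0.193). Its level is uncertain, since 40.1% of its 2506 stretches of 50 bases also occur in the near-identical copies Gm13305 and Il11ra2, and reads that map to more than 1 place had been discarded. On the RPKM scale Il11ra1 exceeded Il6ra by 8.82 to 9.76 times in the WT control libraries.

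The second question was how TGF-β2 changes the family in Nox4 KO fibroblasts. The same 2 ligands rose and the same 4 receptor chains fell, and Il6, Clcf1 and Il11ra1 again did not pass the test. Lifr and Il6ra were tested through their control level alone, and in Nox4 KO both lost the call under other filters. Of the 10809 genes tested 6.82% were called, 2.22% higher and 4.6% lower. Groups that did not overlap were found for the same 6 members and for 48.5% of all genes tested. These responses were measured in Nox4 KO libraries alone and share none with the WT comparison. The skeletal muscle sum, nearly all Acta1, was between 84.8 and 103 RPKM in control and between 254 and 566 RPKM with TGF-β2. The fibroblast sum overlapped, at 5075 to 6956 RPKM in control and 4312 to 5492 RPKM with TGF-β2. Of its genes, Pdgfra went from between 21.5 and 32.0 RPKM to between 3.06 and 3.82 RPKM. Their part in the result was not tested.

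Il11 was at 7.52, 10.1 and 3.48 RPKM in Nox4 KO control and at 105, 122 and 34.2 RPKM with TGF-β2. The third replicate was lowest in both groups, yet its stimulated level lay above all control libraries. The fold change was 13.1 (95% interval 4.58 to 37.4, edgeR adjusted p = 0.00997), a wider interval than in WT. The ratio of stimulated to control level in same-numbered libraries was 14.0, 12.1 and 9.85.

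Lif was at 6.86, 10.4 and 5.01 RPKM in Nox4 KO control and at 54.1, 58.6 and 22.4 RPKM with TGF-β2. Again the third replicate was the lowest in each group. The fold change was 6.43 (95% interval 2.99 to 13.8, edgeR adjusted p = 0.0101), and the same-numbered ratios were 7.89, 5.64 and 4.47. Without the third replicate of both groups the log2 fold change was 3.77 ± 0.18 (SE) for Il11 and 2.79 ± 0.22 (SE) for Lif, with adjusted p of 0.00174 and 0.00346. The summed myeloid markers were also lowest in this replicate, at 21.1 RPKM in control, where the other two had 93.5 and 33.8 RPKM, and at 13.9 RPKM with TGF-β2, where they had 67.1 and 24.4 RPKM. Their part in the result was not tested.

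**Figure D2:**
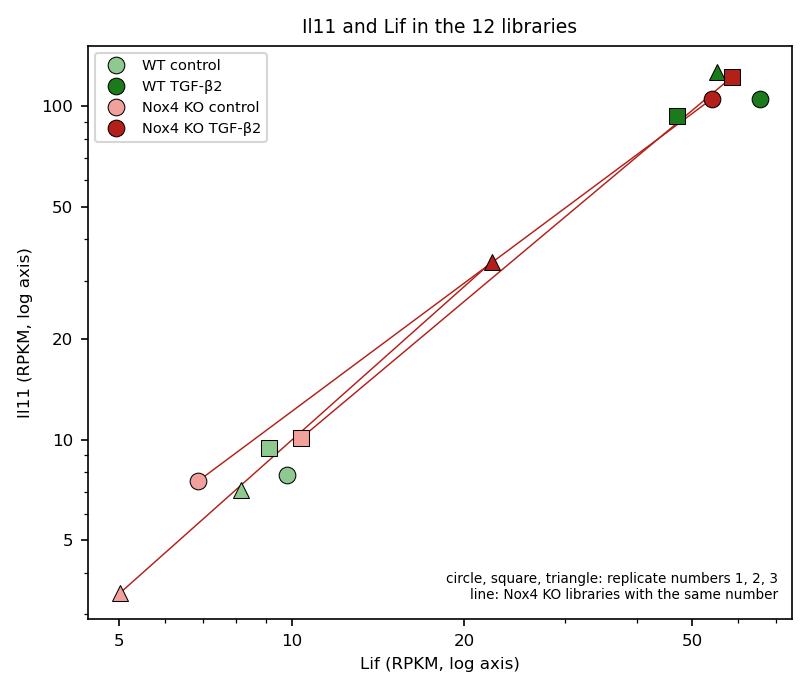
Il11 against Lif in RPKM in the 12 libraries, both on log axes, with colours for the 4 groups, symbols for the replicate number and lines that join same-numbered Nox4 KO libraries. The control libraries lie at the lower left and the stimulated ones at the upper right, except that the third stimulated Nox4 KO library stands between them at 22.4 RPKM for Lif and 34.2 RPKM for Il11.

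Il6 ranged from 2.65 to 5.63 RPKM in Nox4 KO control and from 3.86 to 5.19 RPKM with TGF-β2, and its log2 fold change was 0.35 ± 0.30 (SE, 95% interval -0.39 to 1.09, edgeR adjusted p = 0.412). Clcf1 ranged from 30.4 to 39.7 RPKM and from 27.6 to 36.1 RPKM, with a log2 fold change of -0.11 ± 0.15 (SE, edgeR adjusted p = 0.600). Both ligands overlapped between the groups, and the Il6 interval reaches just beyond a 2-fold rise.

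Il6st fell from 62.1, 50.6 and 43.1 RPKM in Nox4 KO control to 23.2, 24.3 and 23.5 RPKM with TGF-β2. The stimulated libraries lay close together, with an SD of 0.580 RPKM, and below all control libraries. The log2 fold change was -1.05 ± 0.14 (SE, edgeR adjusted p = 0.00575). Osmr fell from 50.3, 45.9 and 36.9 RPKM to 20.6, 18.9 and 18.3 RPKM, with a log2 fold change of -1.12 ± 0.13 (SE, edgeR adjusted p = 0.0042).

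Lifr fell from 2.00, 1.85 and 1.60 RPKM to 0.913, 1.02 and 0.620 RPKM, with a log2 fold change of -1.01 ± 0.21 (SE, edgeR adjusted p = 0.0167). Il6ra fell from 1.81, 2.03 and 1.92 RPKM to 0.987, 0.875 and 0.840 RPKM, with a log2 fold change of -1.01 ± 0.10 (SE, edgeR adjusted p = 0.00308). Both had means under 1 RPKM with TGF-β2 and entered the test through the control group alone. Both stood just inside the 2-fold limit, and a filter on counts, no filter, or a fit over all 12 libraries put both just outside it, with log2 values between -0.98 and -0.97 and adjusted p between 0.00331 and 0.0192. Lifr lost its call without the first or second control or the third stimulated library, Il6ra without the second control or the second or the third stimulated library, and Il6st without the first control library. The smallest change in these fits was that of Lifr without the third stimulated library, at a log2 value of -0.82.

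Il11ra1 was at 17.6, 16.3 and 20.6 RPKM in Nox4 KO control and at 9.69, 9.70 and 19.1 RPKM with TGF-β2. The first pair of stimulated libraries lay below the control range and the third within it. The log2 fold change was -0.42 ± 0.28 (SE, 95% interval -1.09 to 0.26, edgeR adjusted p = 0.291). Without the third replicate of both groups it was -0.72 ± 0.07 (SE) with an adjusted p of 0.00443, still short of a 2-fold change.

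**Figure D3:**
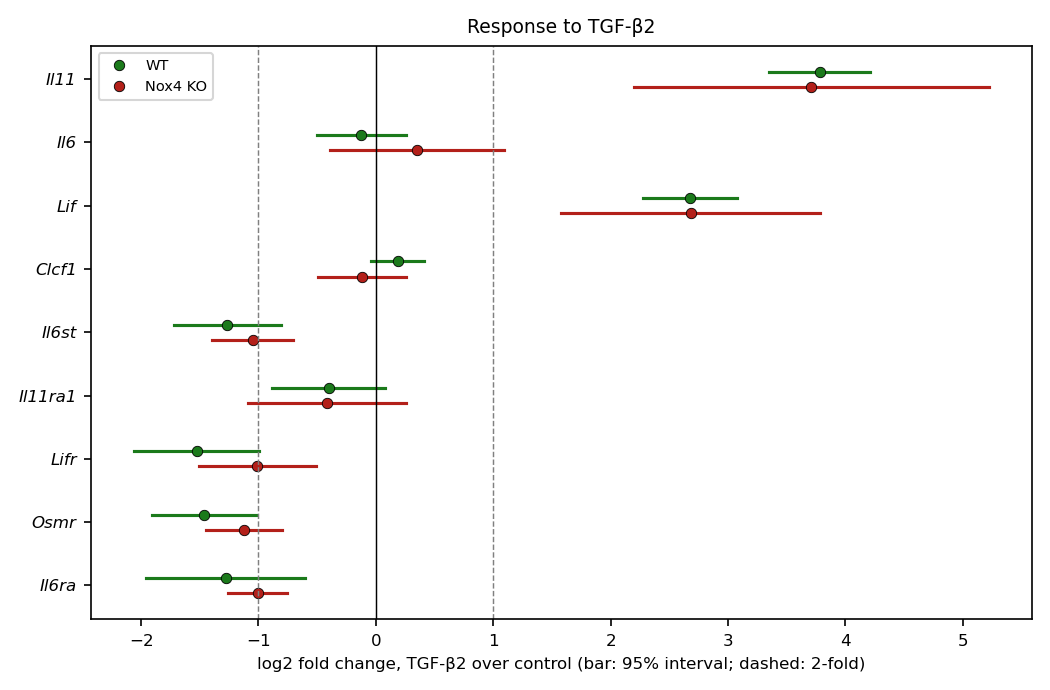
Log2 fold change of TGF-β2 over control (horizontal axis) for each of the 9 genes in WT (green) and Nox4 KO (red), with bars for the 95% interval and dashed lines at a 2-fold change. Il11 and Lif stand far right at 3.78 and 2.67 in WT, 4 receptor chains stand at or left of -1, and Il6, Clcf1 and Il11ra1 have intervals that include 0.

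The third question was whether the loss of NOX4 changes the family. No member was called between Nox4 KO and WT, in control or after TGF-β2, and none had a response that differed between the genotypes by the interaction test. The percentage of all genes called by edgeR was 0 in each of these 3 tests, over 10767, 10439 and 10890 genes. At an unadjusted p under 0.05 the numbers were 596 (5.54%), 336 (3.22%) and 290 (2.66%), and DESeq2 called 5 genes higher and 1 lower in each of the first pair of tests and 6 in the interaction, none of them a member.

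In control cells the log2 difference of Nox4 KO from WT was -0.24 for Il11 (95% interval -1.14 to 0.67), -0.32 for Lif (-0.97 to 0.33), -0.73 for Il6 (-1.47 to 0.01) and 0.02 for Clcf1 (-0.26 to 0.30). Il6 had the largest difference in size, with WT libraries from 5.29 to 7.13 RPKM and Nox4 KO libraries from 2.65 to 5.63 RPKM, and the groups overlapped (edgeR unadjusted p = 0.0528, adjusted p = 0.83). The intervals of Il11 and Il6 include a 2-fold lower level, so that a difference of that size cannot be set aside at this spread. Without the third Nox4 KO control library the difference of Il11 was 0.095. For Lif, leaving out 1 library gave differences from -0.65 to -0.093.

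Among receptor chains in control cells the log2 difference was -0.51 for Lifr (95% interval -0.84 to -0.18), -0.27 for Osmr (-0.61 to 0.06), -0.11 for Il6st (-0.48 to 0.27), -0.07 for Il6ra (-0.40 to 0.26) and -0.05 for Il11ra1 (-0.46 to 0.36). Lifr was the member whose groups did not overlap, at 1.60 to 2.00 RPKM in Nox4 KO and 2.12 to 2.88 RPKM in WT, as in 13.6% of all genes tested, 2.74% lower in Nox4 KO. Its unadjusted edgeR p was 0.00871 and its adjusted p 0.83. All 5 intervals leave out a 2-fold difference.

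After TGF-β2 the log2 difference of Nox4 KO from WT was -0.30 for Il11 (95% interval -1.33 to 0.74), -0.30 for Lif (-1.14 to 0.55), -0.24 for Il6 (-0.59 to 0.11) and -0.27 for Clcf1 (-0.58 to 0.05). For Il11 and Lif, 2 of 3 Nox4 KO libraries lay within the WT range and the third replicate below it, and without it the differences were 0.091 for Il11 and 0.031 for Lif. Il6st, Osmr and Il11ra1 differed by 0.12 (-0.33 to 0.57), 0.08 (-0.37 to 0.53) and -0.05 (-0.74 to 0.64). Adjusted p by edgeR was at least 0.835 for all 7 of these genes.

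Lifr and Il6ra had means under 1 RPKM in both stimulated groups and were not tested at that limit. With a filter on counts in its place, the log2 difference was 0.0075 for Lifr (95% interval -0.64 to 0.65, edgeR adjusted p = 0.994) and 0.20 for Il6ra (-0.45 to 0.86, adjusted p = 0.869).

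The interaction gives the response of Nox4 KO minus that of WT on the log2 scale. It was -0.06 for Il11 (95% interval -1.46 to 1.34), 0.02 for Lif (-1.06 to 1.10), 0.49 for Il6 (-0.30 to 1.28) and -0.29 for Clcf1 (-0.69 to 0.12). For the receptor chains it was 0.53 for Lifr (-0.19 to 1.25), 0.35 for Osmr (-0.19 to 0.90), 0.28 for Il6ra (-0.45 to 1.02), 0.23 for Il6st (-0.35 to 0.80) and 0.0043 for Il11ra1 (-0.81 to 0.82). Adjusted p by edgeR was at least 0.85 for each. This fit did not pair same-numbered libraries, and its intervals for Il11 and Lif reach beyond a 2-fold difference of the response in both directions. Without the third replicate of both Nox4 KO groups the interaction was -0.021 ± 0.27 (SE) for Il11 and 0.11 ± 0.28 (SE) for Lif. With the replicate number as a block it was -0.015 ± 0.22 (SE) for Lif. The signs for Il11, Lif and Il11ra1 changed with other settings, so that no direction is given for them.

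**Figure D4:**
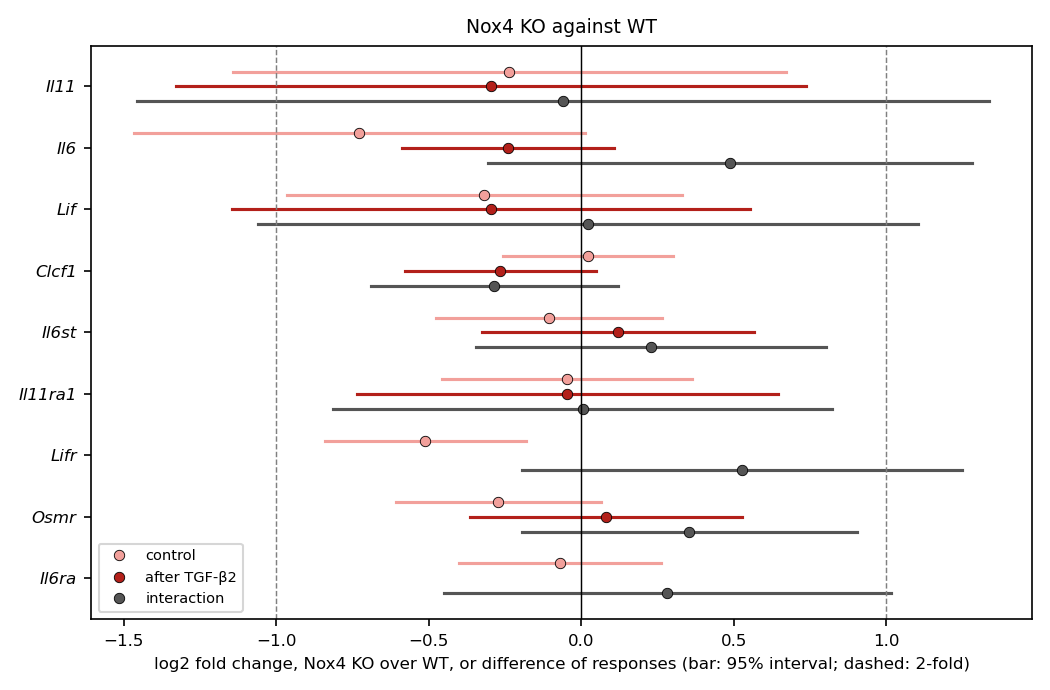
Log2 difference of Nox4 KO from WT (horizontal axis) for each of the 9 genes in control (pink) and after TGF-β2 (red), and the interaction (grey), with bars for the 95% interval and dashed lines at a 2-fold difference. All intervals but that of Lifr in control include 0, and Lifr and Il6ra have no value after TGF-β2 because their means were under 1 RPKM.

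Other ligands of the family were mostly under the limit of 1 RPKM, and none of those listed was called in either genotype. Osm, the oncostatin M gene, had at most 3 counts in any library.

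Of 6 other receptor genes, none was tested in WT and 1 in Nox4 KO. Il31ra, which pairs with Osmr in the interleukin-31 receptor, was under the limit and is named here because its counts were seen to fall. It had 51, 84 and 83 counts in WT control and 0, 2 and 3 counts with TGF-β2. In Nox4 KO it had 120, 108 and 135 counts in control and 3, 6 and 19 counts with TGF-β2. The summed counts, scaled to depth, with TGF-β2 were 2.25% of control in WT (95% interval 0.724 to 5.33, exact, counting error only) and 6.96% in Nox4 KO (4.56 to 10.2). Since the gene was picked for this fall, the values are a description and no test is given.

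Of 11 genes of the JAK-STAT relay, which carries the signal from the receptors to the nucleus, none was called at a 2-fold change. At any fold change and an edgeR adjusted p under 0.05, 6 were lower and 0 higher in WT, beside 12.3% of all genes tested lower and 10.6% higher, and 5 were lower and 1 higher in Nox4 KO, beside 15% lower and 15.2% higher. The median log2 fold change of the list was -0.46 in WT and -0.30 in Nox4 KO, where the median of all genes was -0.0027 and -0.014. Jak1, a kinase bound to gp130, went from between 57.6 and 65.1 RPKM in WT control to between 32.2 and 39.4 RPKM (log2 -0.69 ± 0.11, SE, edgeR adjusted p = 0.00696). Stat3 went from between 57.6 and 62.3 RPKM to between 37.3 and 43.5 RPKM (log2 -0.52 ± 0.09, SE, adjusted p = 0.00974).

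Of 10 listed inhibitors of this signalling, 9 were tested in WT and 10 in Nox4 KO, and Socs3 was the gene called in each, where 7.74% of all genes were called in WT and 6.82% in Nox4 KO. At any fold change and an adjusted p under 0.05, 4 of the list were lower and 0 higher in WT. In Nox4 KO 4 were lower and 1 higher. Of all genes tested, 12.3% were lower and 10.6% higher in WT, and 15% lower and 15.2% higher in Nox4 KO. Socs3 binds gp130 and blocks the Janus kinases. It fell from 10.3, 8.19 and 11.3 RPKM in WT control to 4.12, 4.17 and 4.56 RPKM with TGF-β2 (log2 -1.17 ± 0.14, SE, edgeR adjusted p = 0.00238), and from 11.6, 9.81 and 6.28 RPKM to 3.90, 3.97 and 3.68 RPKM in Nox4 KO (log2 -1.18 ± 0.23, SE, adjusted p = 0.0154). The Nox4 KO call was lost without the first or second control or the second stimulated library. The list's median log2 fold change was -0.35 in WT and -0.24 in Nox4 KO. None of 5 genes of receptor shedding, such as Adam10 and Adam17, passed the test in either genotype, at a median of 0.07 in WT and 0.17 in Nox4 KO.

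Of 9 listed factors that set the stability of cytokine mRNA, Zfp36l1 was called, lower in WT, where 5.1% of all genes tested were. It binds AU-rich stretches and speeds the decay of its target mRNAs. Its level went from 13.7, 11.2 and 18.2 RPKM to 7.29, 6.25 and 7.16 RPKM (log2 -1.01 ± 0.18, SE, edgeR adjusted p = 0.00932), at the edge of the 2-fold limit. A filter on counts, no filter, the replicate block, or leaving out the third control or second stimulated WT library ended this call. In Nox4 KO the log2 value was -0.89 with an adjusted p of 0.0423. At any fold change, WT had 1 gene of the list higher and 2 lower, beside 10.6% and 12.3% of all genes tested. Nox4 KO had 3 higher and 2 lower, beside 15.2% and 15%. The list's median was 0.02 in WT and 0.07 in Nox4 KO.

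Genes known as STAT3 targets in other cells moved in both directions. Of 20 listed, 19 were in the table and 16 were tested. In WT 4 were called higher and 3 lower, where 2.64% and 5.1% of all genes tested were, and in Nox4 KO 1 higher and 4 lower, where 2.22% and 4.6% were. The median log2 fold change was -0.36 in WT and -0.38 in Nox4 KO. Ccnd1, which encodes cyclin D1, fell from 34.4, 40.6 and 56.1 RPKM to 8.10, 8.43 and 9.61 RPKM in WT (log2 -2.28 ± 0.18, SE, edgeR adjusted p = 0.000711) and was called lower in Nox4 KO as well (log2 -1.99 ± 0.48, SE, adjusted p = 0.0264).

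Higher in WT were Myc (log2 1.02 ± 0.09, SE), the AP-1 subunit gene Junb (1.16 ± 0.13), the angiogenic factor Vegfa (1.11 ± 0.13) and the metalloproteinase inhibitor Timp1 (1.16 ± 0.16), with edgeR adjusted p of 0.00101, 0.00195, 0.00238 and 0.00424. In Nox4 KO Vegfa was called higher (1.28 ± 0.36, adjusted p = 0.0416), and the third stimulated library was at 67.7 RPKM, against 168 and 172 RPKM in the others. The other genes called, named after their values were seen, were Bcl3, lower in WT at -1.20 and in Nox4 KO at -1.80, and Cebpb, lower in Nox4 KO at -1.30. The Nox4 KO count of 5 was 3 without the first control, the second control or the first stimulated library and 1 without the second stimulated library.

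None of the listed genes was called between the genotypes or in the interaction. In those 3 tests the median log2 value of the JAK-STAT relay was -0.08, 0.10 and 0.18, and that of the STAT3 target genes was -0.04, -0.13 and -0.05.

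**Figure D5:**
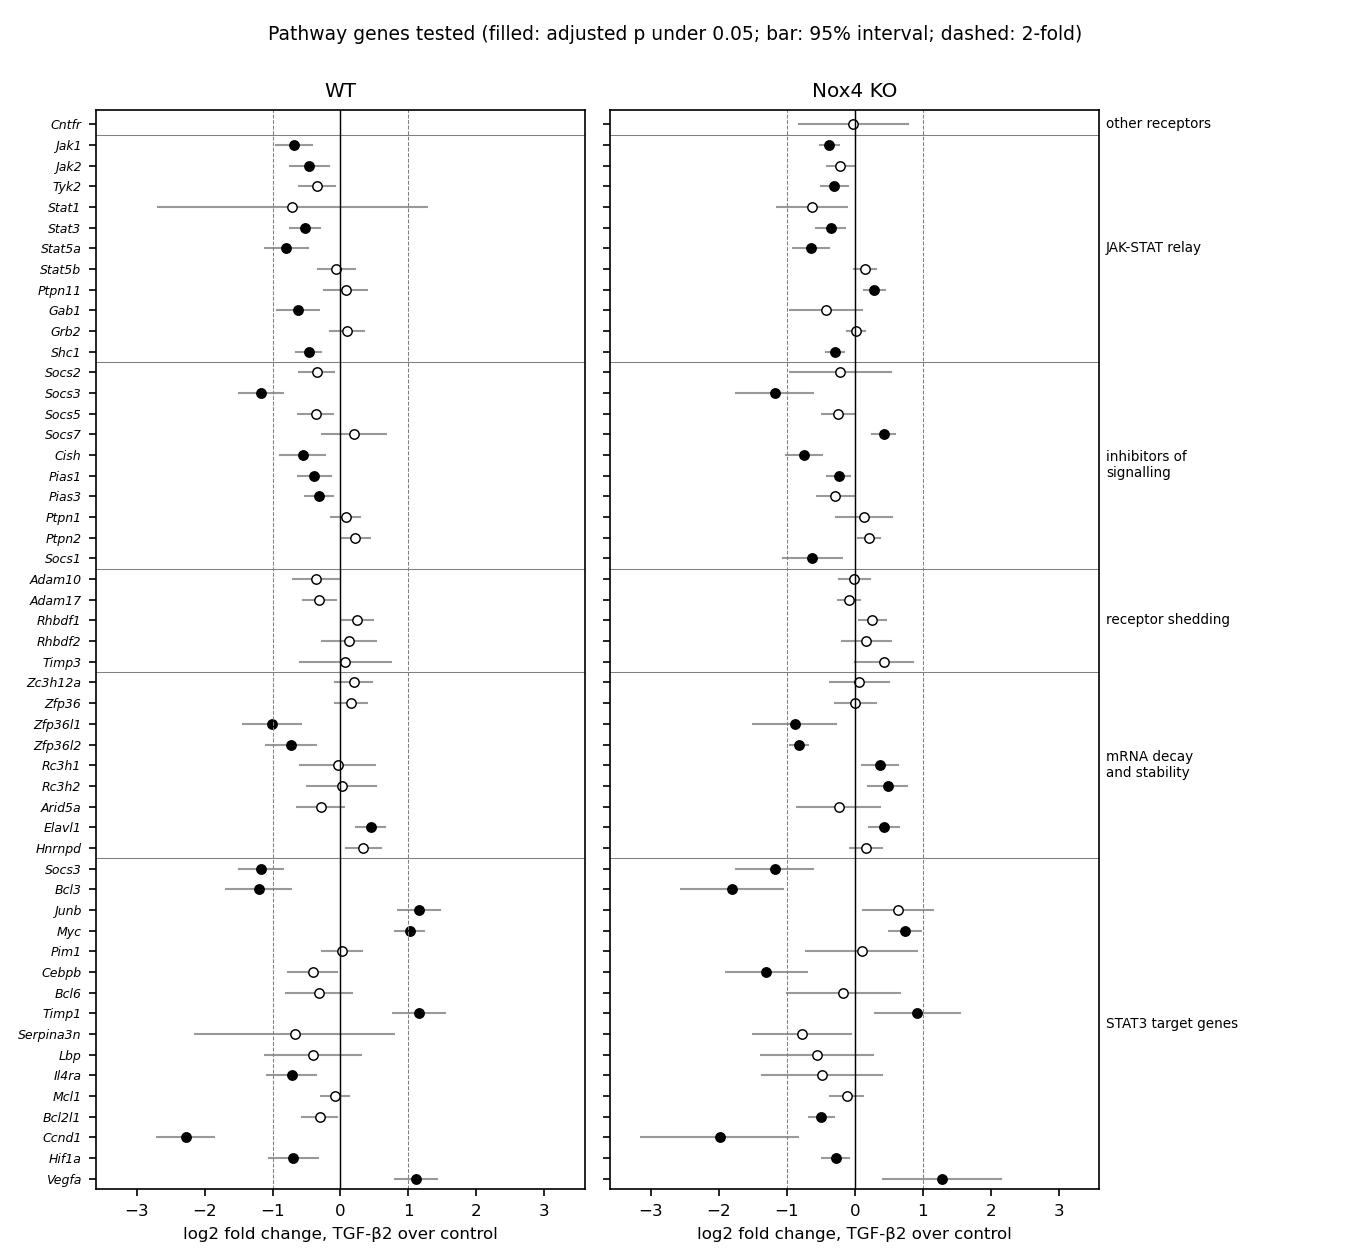
Log2 fold change of TGF-β2 over control for the genes of the receptor, relay, inhibitor, shedding, mRNA stability and STAT3 target lists that were tested, in WT (left) and Nox4 KO (right), grouped by list, with bars for the 95% interval, filled circles for an adjusted p under 0.05 and dashed lines at a 2-fold change. Socs3 appears in the inhibitor and the STAT3 target list, and Ccnd1 lies farthest from 0 among these genes at -2.28 in WT.

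Finally, the genes with the pattern most like each of Il11, Il6 and Lif were sought by Pearson's r of log2(CPM + 0.5), where CPM is the count scaled to library depth, over the 12 libraries among 10889 genes. The libraries share the TGF-β2 contrast and the low levels of the third Nox4 KO replicate, and r is given as a description. For Il11 the closest was Lif (r = 0.994), then Dok5 (0.990), Pvr (0.988) and Acsbg1 (0.987). For Lif the order was Il11 (0.994), Acsbg1 (0.992), Dok5 (0.989) and Kctd11 (0.988).

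Dok5 encodes an adaptor of receptor tyrosine kinases, Pvr a cell adhesion receptor, Acsbg1 an acyl-CoA synthetase and Kctd11 a BTB-domain protein. With TGF-β2 their log2 change in WT was 1.72 for Dok5, 1.00 for Pvr, 3.93 for Acsbg1 and 1.29 for Kctd11. These 4 genes were picked for following Il11 or Lif over the same libraries, which fixes their direction, and the values are a description. Acsbg1 was near 0 in control, at no more than 0.211 RPKM in any control library, and between 1.01 and 3.15 RPKM in the stimulated ones.

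For Il6 the closest genes reached lower values, with r of 0.861 for Sgk1, 0.814 for Ntn4, 0.798 for Kif1a and 0.768 for Itga9. None of them was called with TGF-β2 in either genotype. The log2 change in WT was 0.02 for Sgk1, -0.13 for Ntn4, -0.18 for Kif1a and -0.07 for Itga9. All 4 had their lowest library in Nox4 KO control, as Il6 had, at 11.3 RPKM for Sgk1, 17.2 for Ntn4, 7.78 for Kif1a and 4.09 for Itga9. These 4 genes were picked for following Il6 over the same libraries, so that their small changes and low libraries are a description.

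Across the 12 libraries the receptor chains that fell also tracked each other, with r of 0.992 between Il6st and Osmr, 0.975 between Lifr and Osmr and 0.962 between Il6st and Il6ra. Il11ra1 had r of 0.562 with Il6st. These values share the TGF-β2 contrast as well.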

How the data were processed

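RNA from 12 libraries was sequenced as single-end reads of 50 nt. Per the labels and the methods of the study, the authors base-called with CASAVA 1.8.2, aligned to GRCm38 with STAR (2.4 in the submitters' processing notes), discarded reads that mapped to more than 1 place, and deposited raw counts per gene made with featureCounts 1.4.6 over merged exons of protein-coding isoforms. Whether counting used strand is not given in the sources used here. Each column of the table was matched to a library by its name.

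From these counts, with totals of 35118344 to 43796260 per library, RPKM was computed with exon lengths from GENCODE (21099 genes by protein-coding and 457 by all transcripts). Per length, RPKM allows levels of different genes to be compared. Genes with a mean of at least 1 RPKM in a group of the comparison were tested with edgeR 4.0.16 (R 4.3.3), TMM scaling and the quasi-likelihood test, on the 6 libraries of each pair of groups or on all 12 for the interaction. Adjustment was by Benjamini-Hochberg over all genes tested, and calls needed an adjusted p under 0.05 and, except for the interaction, a fold change of at least 2. The test was run on simulated counts before use.

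The 9 genes and the pathway lists were chosen with earlier results of these data known. Named are all 9 genes, at most 6 genes per list called with TGF-β2 by the smallest adjusted p in WT, genes that define a list, and the 4 genes most like Il11, Il6 and Lif. Il31ra, Bcl3 and Cebpb were named outside this rule, after their values were seen. Replicates differed by more than counting noise, with a chi-square per gene of at least 15.1. Each library counted as 1 sample, though this check cannot show that the libraries come from separate animals.

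Same-numbered libraries of Nox4 KO deviated together from their group means (correlations over genes of 0.763, 0.688 and 0.741), and by this check, not by the labels, their numbers pair control with TGF-β2. Alternatives were other scalings (DESeq2 1.42.0 size factors, upper quartile, totals), the DESeq2 test, other filters, a replicate block, no fold limit, a fit over all libraries, leaving out each library, and, chosen after seeing the data, leaving out the third replicate of both Nox4 KO groups. One item of a pathway list is not reported here.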

Additional observations from a re-analysis of the deposited data

How the results depend on the processing

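Il11 and Lif stayed called higher, and Osmr lower, with TGF-β2 in both genotypes under every alternative run. In Nox4 KO 2 members in place of 4 were called lower with the count filter, with no filter, with all 12 libraries in the fit and without the third replicate of both groups, and 2 to 4 when 1 library was left out. In WT it was 3 to 4. Over all genes, 842 were called lower in WT with the count filter and 864 with no filter, against 548, and 751 in Nox4 KO with no filter, against 497, where more genes were tested. Without the fold limit 1138 were higher and 1325 lower in WT, and 1644 and 1626 in Nox4 KO. Leaving out 1 library gave 236 to 304 higher and 425 to 591 lower in WT, and 154 to 291 higher and 291 to 600 lower in Nox4 KO, lowest in both directions without the second TGF-β2 library. The DESeq2 test called 5 genes higher and 1 lower between genotypes in control, the same numbers after TGF-β2, and 6 lower in the interaction. A fit over all 12 libraries called 1 gene higher in control. Leaving out 1 library gave 0 to 1 lower in control (1 without the second Nox4 KO library) and 0 to 1 higher after TGF-β2 (1 without the first). The causes were not tested.

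Between genotypes, no member was called under any alternative, but small differences changed sign. In control, leaving out 1 library gave log2 ranges of -0.60 to 0.095 for Il11, -0.088 to 0.13 for Clcf1, -0.26 to 0.023 for Il6st, -0.17 to 0.15 for Il11ra1 and -0.17 to 0.078 for Il6ra. After TGF-β2 they were -0.62 to 0.091 for Il11, -0.53 to 0.031 for Lif, -0.068 to 0.29 for Il6st, -0.44 to 0.12 for Il11ra1 and -0.097 to 0.27 for Osmr. In the interaction they were -0.41 to 0.33 for Il11, -0.22 to 0.36 for Lif and -0.40 to 0.17 for Il11ra1. The interaction of Il11ra1 was -0.0088 with DESeq2 size factors, -0.050 with the upper quartile, -0.057 with totals, -0.0091 by DESeq2, -0.010 with the count filter, -0.031 with no filter and -0.33 without the third replicate of both Nox4 KO groups. That of Lif was -0.026 with the upper quartile, -0.032 with totals and -0.0026 with no filter.

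With the replicate number as a block, 921 genes were called in WT (832 without) and 898 in Nox4 KO (737 without), and 0 in the other comparisons. The block changed no call of a member, though the interaction turned to -0.074 for Il11ra1 and -0.015 for Lif. In WT the same-numbered libraries did not all deviate together (correlations of 0.062, 0.415 and 0.525), nor did they between genotypes in control (0.204, 0.0094 and 0.314) or after TGF-β2 (-0.18 for the second number).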
